A study of Homo sapiens with 4 samples.

Results

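Amino acid transporters of the families SLC1A, SLC3A, SLC6A, SLC7A, SLC36A, SLC38A and SLC43A were described in spheroids of 4 human colon cell lines. The members were every gene whose name is one of these 7 family names followed by digits only, which gave 59 of the 58740 genes of the deposited table, all of them protein coding. HCT116 and DLD-1 are lines from colorectal carcinomas and SW620 is a line from a lymph node metastasis of a colorectal carcinoma. The comparison line, HCEC-1CT, comes from normal colon and owes its unlimited growth to introduced CDK4 and TERT. The labels give all 4 lines as wild type and as epithelial. They give the same handling for each: 7 days of growth as spheroids in low-attachment plates, in medium with 10% fetal bovine serum, with RNA pooled from 2 plates of 24 wells. Each line has 1 library, so no test and no p-value is given, and the 3 cancer lines are not replicates of each other.

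Values are FPKM, a fragment count scaled to transcript length and to library depth. The scaling to length lets genes be compared, within a limit: member values are sums over transcripts. A fragment given to a short transcript therefore adds more FPKM than one given to a long transcript of the same gene. A member is counted as higher or lower in a cancer line when its ratio to HCEC-1CT is at least 4-fold on FPKM plus a pseudocount of 1, and the higher of both values is 1 FPKM or more. Ratios are log2 ratios on that scale and understate the change of low genes. Where a gene is listed at 0 its level is given in place of a ratio, save in the plot of ratios and among the results singled out after the report, where such values rest on the pseudocount. The steps between low values put the depth at about 25400000 fragments in HCT116, 23500000 in DLD-1, 29000000 in SW620 and 29700000 in HCEC-1CT. For a 2 kb transcript, 1 FPKM then equals 50.9 fragments in HCT116, 47.1 in DLD-1, 58.0 in SW620 and 59.3 in HCEC-1CT. Median-ratio scaling factors put HCT116 0.38, DLD-1 0.41 and SW620 0.29 above HCEC-1CT on the log2 scale, and the ratios as given include that shift.

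The libraries differed in markers of cell type. The 7 epithelial markers (EPCAM, KRT8, KRT18, KRT19, CDH1, CLDN4 and CLDN7) were higher in all 3 cancer lines, with summed levels of 1598 FPKM in HCT116, 5426 in DLD-1, 6713 in SW620 and 7.81 in HCEC-1CT. EPCAM, KRT19 and CDH1 were listed at 0 in HCEC-1CT, which goes against its epithelial label. The 9 fibroblast markers were lower in all 3 cancer lines, with sums of 12.5 FPKM in HCT116, 0.0213 in DLD-1, 27.5 in SW620 and 1131 in HCEC-1CT. Every transporter ratio below is taken over that HCEC-1CT library, and the part of these marker differences in the transporter values was not tested. In bulk RNA, fewer cells of a type and less RNA per cell cannot be told apart.

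Cells take up most amino acids through carriers with overlapping substrates. Some concentrate amino acids with sodium or protons, such as members of the SLC38A and SLC36A families. Others exchange one amino acid for another, such as SLC1A5 and the SLC7A light chains, which reach the membrane bound to a heavy chain of the SLC3A family. The SLC6A family also holds carriers of GABA, monoamines, taurine and creatine, and SLC43A3 carries purine nucleobases, so not every member moves an amino acid.

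Of the 59 members, 35 reached 1 FPKM in at least 1 line and 17 did so in all 4. At least 1 FPKM was reached by 30 members in HCT116, 24 in DLD-1, 26 in SW620 and 27 in HCEC-1CT. The other 24 stayed under 1 FPKM throughout, and 5 of them (SLC6A5, SLC6A19, SLC7A3, SLC7A13 and SLC36A2) were listed at 0 in all 4 libraries. Among those is SLC6A19, the main neutral amino acid carrier of the small intestinal brush border. The 3 monoamine carriers SLC6A2, SLC6A3 and SLC6A4 reached at most 0.0797 FPKM. SLC3A1 and its light chain SLC7A9, which together take up cystine in kidney and gut, reached at most 0.229 and 0.510 FPKM. The members together held 0.237% of the FPKM of nuclear protein-coding genes in HCT116, 0.209% in DLD-1, 0.420% in SW620 and 0.373% in HCEC-1CT.

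**Figure D1:**
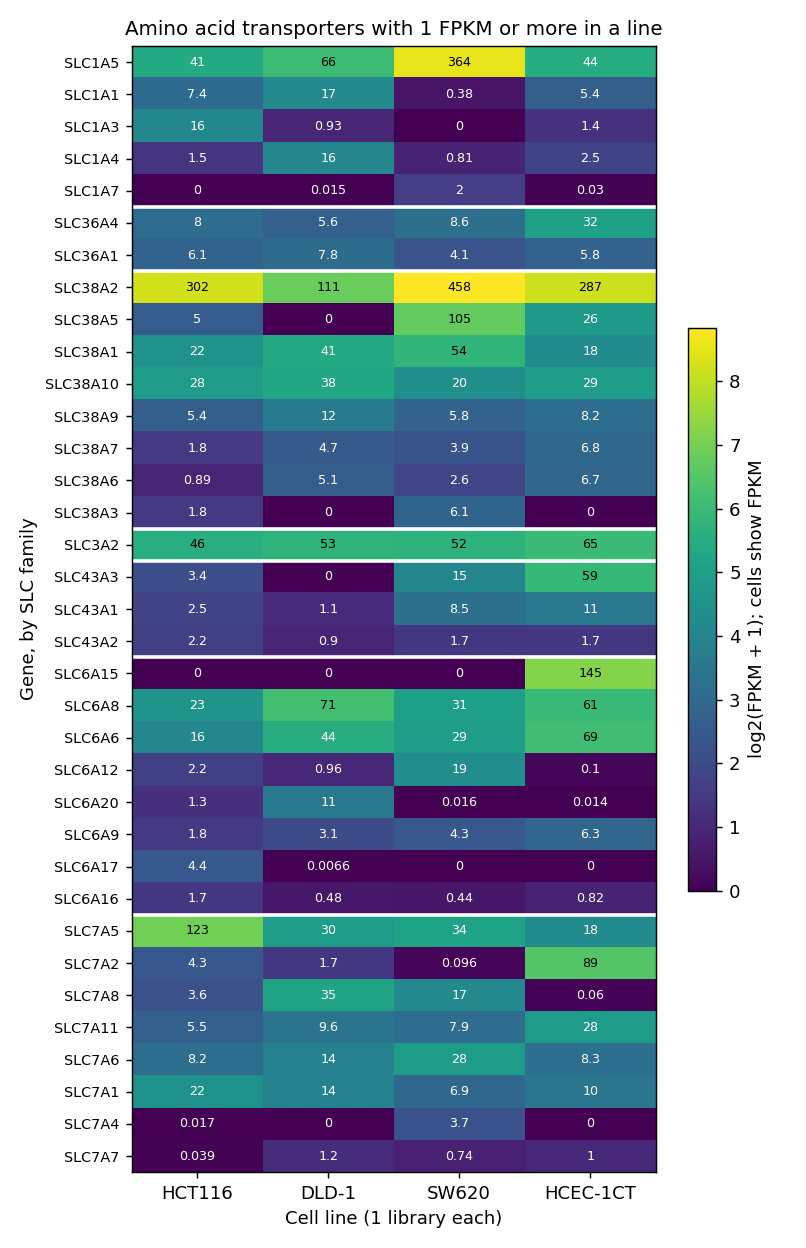
Levels of the 35 members that reached 1 FPKM in any line, as log2(FPKM + 1) by colour and as FPKM in each cell, by family (rows, parted by white lines) and cell line (columns, 1 library each). By these gene values SLC38A2 was the highest member in every line, while SLC6A15 was listed at 0 in the 3 cancer lines and stood at 145 FPKM in HCEC-1CT.

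Few members went past 4-fold in all 3 cancer lines. SLC7A8 was the 1 member higher in all 3, where 2.68% of all genes with at least 1 FPKM in a library, and 3.47% of the protein-coding ones, met the same rule. SLC6A15 and SLC7A2 were the 2 members lower in all 3, against 2.99% of all genes and 3.41% of protein-coding genes. These shares of 59 members, or of the 35 that reached 1 FPKM, lie near the background. Since all 3 comparisons share the HCEC-1CT library, they are not separate evidence.

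Against HCEC-1CT, 4 members were higher in HCT116 (SLC1A3, SLC6A17, SLC7A5 and SLC7A8) and 7 lower (SLC6A6, SLC6A15, SLC7A2, SLC7A11, SLC38A5, SLC38A6 and SLC43A3). Shares of all genes and of protein-coding genes here are over those with at least 1 FPKM in a library, a filter that 35 members passed. In HCT116, 9.04% of all genes were higher and 5.01% lower, and of protein-coding genes 10.6% and 5.67%. In DLD-1, 3 members were higher (SLC1A4, SLC6A20 and SLC7A8) and 6 lower (SLC6A15, SLC7A2, SLC36A4, SLC38A5, SLC43A1 and SLC43A3), beside 9.24% and 5.57% of all genes and 10.8% and 6.56% of protein-coding genes. In SW620, 5 members were higher (SLC1A5, SLC6A12, SLC7A4, SLC7A8 and SLC38A3) and 3 lower (SLC1A1, SLC6A15 and SLC7A2), beside 8.93% and 5.49% of all genes and 10.1% and 6.32% of protein-coding genes. With median-ratio scaling, the SW620 split became 5 higher and 6 lower. Over the 35 members with at least 1 FPKM, a filter that lets in genes high in any line, the median log2 ratio was -0.04 for HCT116, 0 for DLD-1 and -0.34 for SW620. Over all 18637 genes passing that filter it was 0.27 for HCT116, 0.33 for DLD-1 and 0.21 for SW620.

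**Figure D2:**
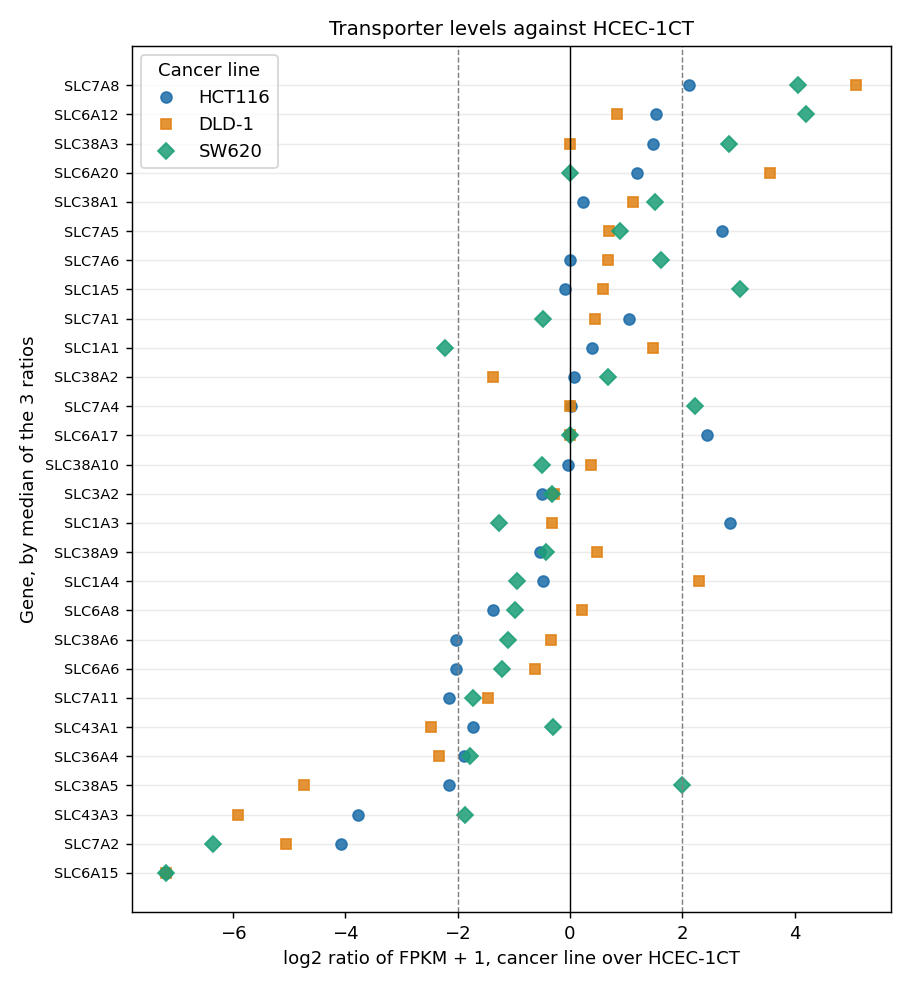
Log2 ratios of FPKM + 1 over HCEC-1CT (x axis) for the 28 members with at least 10 FPKM in a line or past 4-fold in a comparison (y axis), 1 point per cancer line, with dashed lines at 4-fold; points of genes listed at 0 rest on the pseudocount. SLC7A8 lies right of the upper dashed line in all 3 lines, SLC6A15 and SLC7A2 lie left of the lower one, and SLC1A1, SLC1A3 and SLC38A5 fall on both sides of 0.

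SLC7A8 encodes LAT2, an exchanger of large and small neutral amino acids. The gene (ENSG00000092068, chromosome 14, 23125295 to 23183674 in hg38) stood at 3.62 FPKM in HCT116, 35.2 in DLD-1, 16.7 in SW620 and 0.0601 in HCEC-1CT. DLD-1 was the highest line, and the HCEC-1CT value stands for about 7.52 fragments. The log2 ratios were 2.12 for HCT116, 5.09 for DLD-1 and 4.06 for SW620. The HCT116 ratio lay just past the 4-fold limit, and among protein-coding transcripts alone it was 1.98, short of it. In DLD-1 a transcript annotated as a retained intron, ENST00000397310, held 44.1% of the gene's FPKM, and protein-coding transcripts of SLC7A8 came to 18.7 FPKM in DLD-1 and 15.9 in SW620.

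SLC6A15 encodes B0AT2, a sodium-coupled carrier of branched-chain amino acids and proline that is best known from brain. It (ENSG00000072041, chromosome 12, 84859488 to 84913615) was listed at 0 in HCT116, DLD-1 and SW620, and stood at 145 FPKM in HCEC-1CT. The HCEC-1CT value stands for about 20000 fragments and made SLC6A15 the second-ranked member there. No transcript of SLC6A15 had a value above 0 in a cancer line.

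SLC7A2 encodes CAT2, a carrier of arginine, lysine and ornithine. The gene (ENSG00000003989, chromosome 8, 17497088 to 17570573) stood at 4.34 FPKM in HCT116, 1.71 in DLD-1, 0.0957 in SW620 and 88.9 in HCEC-1CT. All 3 cancer lines were far below HCEC-1CT, with log2 ratios of -4.07 for HCT116, -5.05 for DLD-1 and -6.36 for SW620. SLC7A1, which encodes the widely used cationic carrier CAT1, had no ratio past 4-fold, at 21.8 FPKM in HCT116, 13.9 in DLD-1, 6.93 in SW620 and 10.0 in HCEC-1CT. SLC7A1 was the leading cationic carrier gene in HCT116 and DLD-1, SLC7A6 in SW620 and SLC7A2 in HCEC-1CT.

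Sums by substrate class put these genes side by side. The 6 cationic carriers came to 34.9 FPKM in HCT116, 30.9 in DLD-1, 35.4 in SW620 and 108 in HCEC-1CT, of which SLC7A2 made up 82.1% in HCEC-1CT. Without SLC7A2 the order turned round: the other 5 summed to 30.6 FPKM in HCT116, 29.2 in DLD-1, 35.3 in SW620 and 19.4 in HCEC-1CT. The 4 carriers of large neutral amino acids (SLC7A5, SLC7A8, SLC43A1 and SLC43A2) summed to 131 FPKM in HCT116, 67.1 in DLD-1, 61.2 in SW620 and 30.4 in HCEC-1CT. That sum was led by SLC7A5 and SLC7A8, and SLC43A1 and SLC43A2 alone came to 4.76 FPKM in HCT116, 1.99 in DLD-1, 10.2 in SW620 and 12.3 in HCEC-1CT. The 6 carriers of glutamine and related amino acids of systems A and N came to 331 FPKM in HCT116, 152 in DLD-1, 625 in SW620 and 331 in HCEC-1CT. This was the largest class in every line. The 4 SLC36A genes summed to 14.0 FPKM in HCT116, 13.4 in DLD-1, 12.7 in SW620 and 37.9 in HCEC-1CT. SLC36A4 made up 84.6% of that sum in HCEC-1CT, and SLC36A1 alone was at 5.84 FPKM there against 4.08 to 7.79 in the cancer lines.

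**Figure D3:**
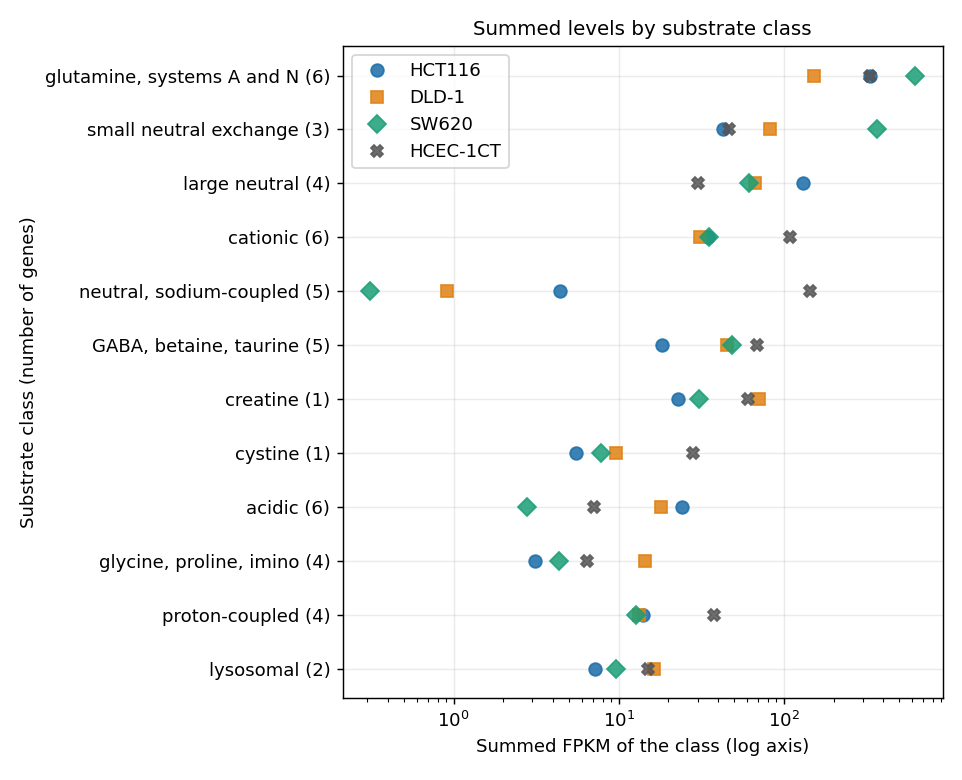
Summed FPKM (log axis) of 12 substrate classes, with the number of member genes in brackets, 1 point per cell line and 1 library each; genes without an established amino acid substrate and the monoamine carriers are left out. The class marked proton-coupled is the whole SLC36A family, whatever the coupling of each member. The sum of the large neutral carriers, led by SLC7A5 and SLC7A8, was 61.2 to 131 FPKM in the 3 cancer lines and 30.4 in HCEC-1CT, and that of the cationic carriers was 30.9 to 35.4 FPKM in the cancer lines and 108 in HCEC-1CT, most of it SLC7A2.

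Among the glutamine carriers, SLC38A2 encodes SNAT2, a sodium-coupled carrier of system A that is known to be induced by amino acid starvation. It (ENSG00000134294, chromosome 12, 46358189 to 46372867) stood at 302 FPKM in HCT116, 111 in DLD-1, 458 in SW620 and 287 in HCEC-1CT. By the gene value SLC38A2 was the highest member in all 4 lines and ranked 153 in HCT116, 410 in DLD-1, 91 in SW620 and 129 in HCEC-1CT among all genes. Among protein-coding transcripts alone SLC1A5 lay above SLC38A2 in DLD-1, at 66.3 against 65.2 FPKM, and in SW620, at 364 against 319. In HCT116 and HCEC-1CT SLC38A2 stayed above SLC1A5 on that count. By the gene value SLC38A2 made up 42.0% of the members' FPKM in HCT116, 18.0% in DLD-1, 35.3% in SW620 and 27.5% in HCEC-1CT. DLD-1 was the lowest line, with a log2 ratio of -1.36 that did not reach 4-fold.

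SLC38A1 encodes SNAT1, the other broadly used system A carrier. Its level was 21.6 FPKM in HCT116, 40.8 in DLD-1, 54.3 in SW620 and 18.2 in HCEC-1CT. In the cancer lines, however, a transcript that GENCODE does not hold made up 40.6% of it for HCT116, 48.4% for DLD-1 and 40.7% for SW620, against 2.85% in HCEC-1CT. Protein-coding transcripts of SLC38A1 came to 11.3 FPKM in HCT116, 19.6 in DLD-1, 29.3 in SW620 and 16.7 in HCEC-1CT, so HCT116 lay above HCEC-1CT by the gene value and below it by the coding transcripts.

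SLC38A5 and SLC38A3 encode the system N carriers SNAT5 and SNAT3, which move glutamine and histidine. SLC38A5 stood at 4.96 FPKM in HCT116 and 105 in SW620, was listed at 0 in DLD-1 and stood at 25.7 in HCEC-1CT. It lay in opposite directions in different lines, with log2 ratios of -2.16 in HCT116 and 2.00 in SW620. The SW620 ratio is just short of the limit before rounding and passes it among protein-coding transcripts alone. On those transcripts the HCT116 ratio falls just short of 4-fold, at 4.18 FPKM against 19.5 in HCEC-1CT. SLC38A3 was at 1.79 FPKM in HCT116 and 6.13 in SW620 and was listed at 0 in DLD-1 and HCEC-1CT. DLD-1 thus had neither system N gene above 0.

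SLC1A5 encodes ASCT2, an exchanger of glutamine and other neutral amino acids. The gene (ENSG00000105281, chromosome 19, 46774883 to 46788594) stood at 41.3 FPKM in HCT116, 66.3 in DLD-1, 364 in SW620 and 43.95 in HCEC-1CT. SW620 was set apart by 4-fold or more from each of the other 3 lines, with a log2 ratio of 3.02 over HCEC-1CT. Summed over all members, the level was 719.6 FPKM in HCT116, 617 in DLD-1, 1298 in SW620 and 1046 in HCEC-1CT, highest in SW620. SLC1A4, whose product ASCT1 exchanges alanine and serine, was instead highest in DLD-1, at 1.499 FPKM in HCT116, 16.0 in DLD-1, 0.813 in SW620 and 2.47 in HCEC-1CT. The row of SLC1A4 includes an antisense transcript, and with median-ratio scaling its DLD-1 ratio of 2.29 became 1.97, short of 4-fold.

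The glutamate carriers were patchy. SLC1A3, which encodes EAAT1, stood at 16.3 FPKM in HCT116 and 0.930 in DLD-1, was listed at 0 in SW620 and stood at 1.40 in HCEC-1CT. HCT116 was set apart above all other lines, with a log2 ratio of 2.86. SLC1A1, which encodes EAAT3, stood at 7.43 FPKM in HCT116, 16.9 in DLD-1, 0.376 in SW620 and 5.41 in HCEC-1CT. Here SW620 was set apart below the other 3 lines, with a log2 ratio of -2.22. SLC1A7, a glutamate carrier of the retina, reached 2.03 FPKM in SW620 and at most 0.0301 elsewhere, and SLC1A2 and SLC1A6 stayed under 1 FPKM throughout. A transcript annotated as a retained intron held 65.8% of the SLC1A7 value in SW620, and protein-coding transcripts of SLC1A7 came to 0.693 FPKM there.

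The heavy chain gene SLC3A2 encodes 4F2hc, also called CD98, which carries the light chains SLC7A5, SLC7A6, SLC7A7, SLC7A8, SLC7A10 and SLC7A11 to the membrane. It (ENSG00000168003, chromosome 11, 62856102 to 62888875) stood at 45.9 FPKM in HCT116, 52.9 in DLD-1, 52.1 in SW620 and 64.9 in HCEC-1CT. These 4 values span 0.49 on the log2 scale, the narrowest range among the 8 members with at least 10 FPKM in every line. The 6 light chain genes summed to 140 FPKM in HCT116, 89.7 in DLD-1, 87.2 in SW620 and 55.6 in HCEC-1CT. Per FPKM of SLC3A2 this was 3.05 in HCT116, 1.70 in DLD-1, 1.67 in SW620 and 0.857 in HCEC-1CT, which are ratios of RNA and not of protein.

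The makeup of the light chains differed from line to line. SLC7A5, which encodes LAT1, the main carrier of leucine and other large neutral amino acids in many tumours, stood at 123 FPKM in HCT116, 29.9 in DLD-1, 34.3 in SW620 and 18.0 in HCEC-1CT. All 3 cancer lines lay above HCEC-1CT, and the log2 ratio passed 4-fold in HCT116 at 2.70 but not in DLD-1 at 0.70 or SW620 at 0.89. SLC7A5 made up 87.5% of the light chain FPKM in HCT116, 33.3% in DLD-1, 39.3% in SW620 and 32.4% in HCEC-1CT. SLC7A8 held 2.58% in HCT116, 39.2% in DLD-1, 19.2% in SW620 and 0.108% in HCEC-1CT. Among protein-coding transcripts SLC7A5 led in DLD-1 with 48.2%, against 30.6% for SLC7A8. The gene SLC7A5 (ENSG00000103257) has near copies, of which SLC7A5P1 and SLC7A5P2 reached at most 3.67 and 6.14 FPKM, and the sources do not say how reads were shared among them.

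SLC7A11 encodes xCT, which takes up cystine, the source of cysteine for glutathione, in exchange for glutamate. It stood at 5.52 FPKM in HCT116, 9.56 in DLD-1, 7.86 in SW620 and 28.2 in HCEC-1CT. Every cancer line was lower than HCEC-1CT, and 1 ratio, -2.16 in HCT116, passed 4-fold, while DLD-1 was at -1.47 and SW620 at -1.72. SLC7A11 made up 3.94% of the light chain FPKM in HCT116, 10.7% in DLD-1, 9.01% in SW620 and 50.7% in HCEC-1CT. SLC7A6, which encodes y+LAT2, an exchanger of cationic for neutral amino acids, was at 8.23 FPKM in HCT116, 13.9 in DLD-1, 27.6 in SW620 and 8.28 in HCEC-1CT. SLC7A7 and SLC7A10 reached at most 1.16 and 0.103 FPKM.

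**Figure D4:**
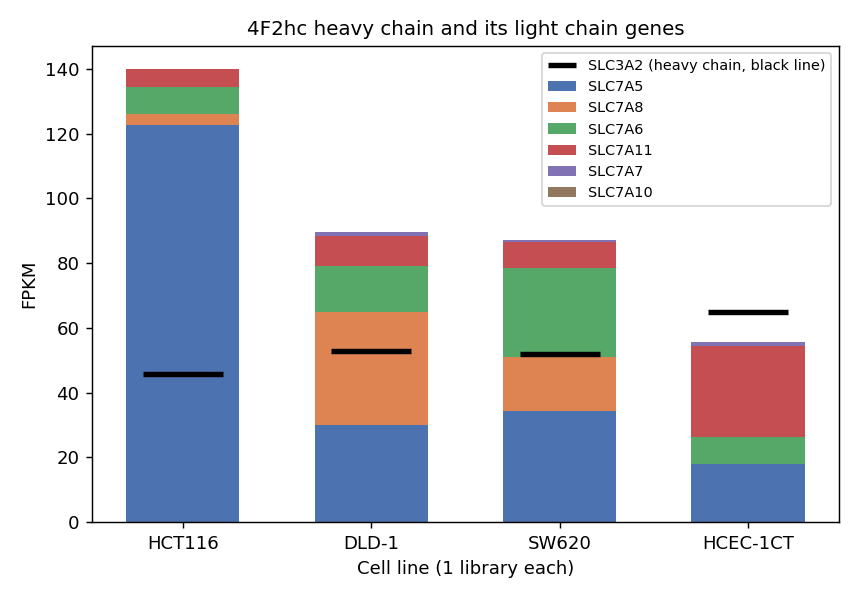
FPKM of the 6 light chain genes, stacked, and of the heavy chain gene SLC3A2, as a black line, in each cell line with 1 library each. The stacks reach 140 FPKM in HCT116, 89.7 in DLD-1, 87.2 in SW620 and 55.6 in HCEC-1CT while SLC3A2 stays between 45.9 and 64.9, and SLC7A11 is the largest block in HCEC-1CT alone.

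SLC3A2 also differed in which transcripts carried its FPKM. The transcripts that begin at the upstream start, between 62856102 and 62856168, held 65.98% of it in HCT116, 57.9% in DLD-1, 68.6% in SW620 and 11.7% in HCEC-1CT. Those that begin at a start inside the gene, between 62881668 and 62881805, held 14.0% in HCT116, 9.58% in DLD-1, 3.77% in SW620 and 62.9% in HCEC-1CT. The main transcript was ENST00000377890 in HCT116 and DLD-1, ENST00000377891 in SW620 and ENST00000536981 in HCEC-1CT, all annotated as protein coding. These are estimates that divide fragments among 23 overlapping transcripts, and annotated ends are not measured starts.

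Promoter windows of 250 bases before to 50 after a RefSeq start (GRCh38.p14) were looked up, and 45 of the 59 members matched 1 or more of them. Windows of SLC3A2 are shown because its upstream and internal starts differed between lines, that of SLC7A5 because it led the light chains in HCT116, and that of SLC7A8 because it was higher in all 3 cancer lines. Capitals mark matches on either strand to 4 motifs: the C/EBP-ATF response element TGATGNAA, bound by ATF4, the E-box CACGTG, bound by MYC, the AP-1 site TGANTCA and the antioxidant response element TGACNNNGC, bound by NRF2.
SLC3A2 upstream start, chr11:62855859-62856158, plus strand: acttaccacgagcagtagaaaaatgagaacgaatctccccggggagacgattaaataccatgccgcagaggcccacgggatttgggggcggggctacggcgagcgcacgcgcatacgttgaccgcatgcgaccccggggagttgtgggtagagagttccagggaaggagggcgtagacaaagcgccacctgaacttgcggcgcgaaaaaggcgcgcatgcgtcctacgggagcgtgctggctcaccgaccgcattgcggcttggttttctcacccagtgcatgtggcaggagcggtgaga
SLC3A2 internal start, chr11:62881449-62881748, plus strand: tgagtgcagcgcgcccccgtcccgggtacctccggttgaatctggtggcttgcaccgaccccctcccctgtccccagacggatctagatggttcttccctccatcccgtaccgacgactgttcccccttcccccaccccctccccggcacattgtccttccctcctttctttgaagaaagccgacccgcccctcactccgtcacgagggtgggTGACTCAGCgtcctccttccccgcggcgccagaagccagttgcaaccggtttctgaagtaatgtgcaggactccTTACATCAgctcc
SLC7A5, chr16:87869458-87869757, minus strand: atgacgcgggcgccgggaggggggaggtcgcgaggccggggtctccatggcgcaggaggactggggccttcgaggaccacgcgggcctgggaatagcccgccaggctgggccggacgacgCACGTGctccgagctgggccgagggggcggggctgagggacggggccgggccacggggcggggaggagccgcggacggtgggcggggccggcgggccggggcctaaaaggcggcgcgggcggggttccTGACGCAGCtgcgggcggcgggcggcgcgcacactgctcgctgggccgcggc
SLC7A8 upstream start, chr14:23183611-23183910, minus strand: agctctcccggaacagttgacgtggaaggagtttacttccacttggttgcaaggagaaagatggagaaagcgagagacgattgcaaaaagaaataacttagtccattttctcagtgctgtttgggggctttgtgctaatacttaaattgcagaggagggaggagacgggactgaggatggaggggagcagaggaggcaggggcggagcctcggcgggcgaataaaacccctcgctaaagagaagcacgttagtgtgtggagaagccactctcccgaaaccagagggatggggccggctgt
The internal SLC3A2 window held the response element once, read on the other strand, and an AP-1 site and an antioxidant element that overlap in 1 run of capitals. The upstream windows of SLC3A2 and SLC7A8 held none of the 4. A further SLC3A2 window at another internal start, chr11:62880646-62880945, not printed, also held none. SLC7A8 has 3 further windows at internal starts, not printed, of which 1 held an E-box and 2 an AP-1 site. SLC7A5 held an E-box and an antioxidant element. Of all 35116 windows in the table, 3.62% held TGATGNAA, 7.26% CACGTG, 7.71% TGANTCA and 13.3% TGACNNNGC. The SLC7A5 window was rich in CG pairs, with 44 in 300 bases, beside 30 and 20 in the upstream and internal SLC3A2 windows, 13 in the upstream one of SLC7A8 and a median of 14 over all windows. A match is a description of letters and shows neither binding nor a cause.

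**Figure D5:**
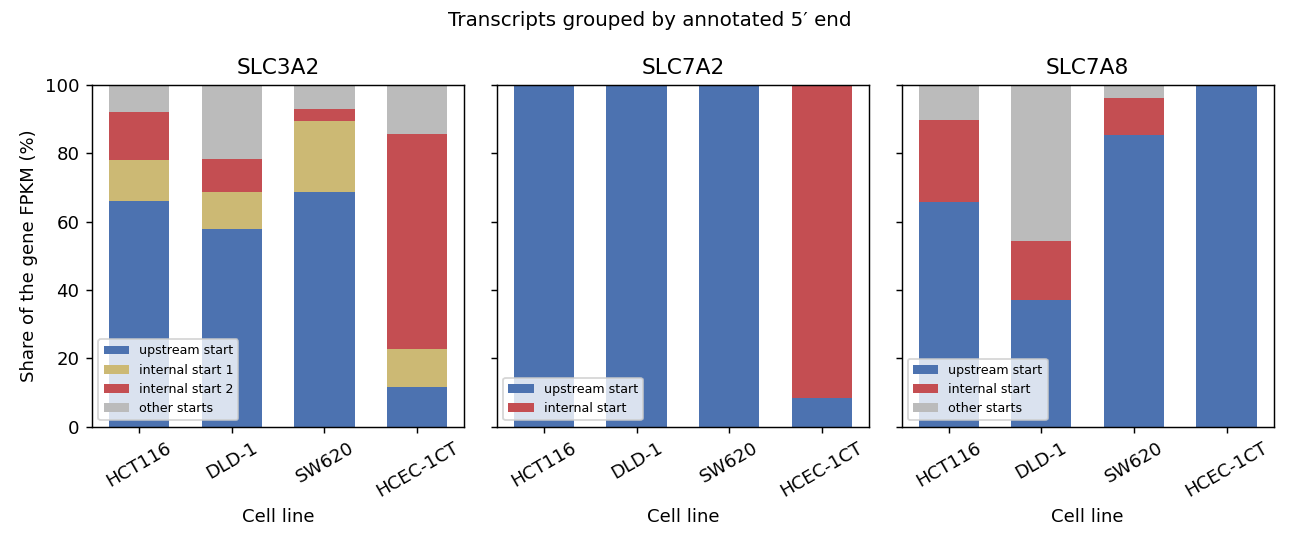
Share of a gene's FPKM (y axis, percent) held by transcripts grouped by annotated 5′ end, for SLC3A2, SLC7A2 and SLC7A8 in each cell line with 1 library each; internal start 2 of SLC3A2 is the one whose window is printed. In the cancer lines internal start 2 of SLC3A2 held from 3.77% to 14.0% and the internal start of SLC7A2 held 0%, against 62.9% and 91.6% in HCEC-1CT.

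For SLC7A2 the internal start, between 17538777 and 17538870, was listed at 0 in all 3 cancer lines and held 91.6% of the FPKM in HCEC-1CT. The upstream start, between 17497088 and 17497215, held all of the FPKM in HCT116, DLD-1 and SW620. Counted on the upstream transcripts alone, SLC7A2 was at 4.34 FPKM in HCT116, 1.71 in DLD-1, 0.0957 in SW620 and 7.42 in HCEC-1CT. The internal transcripts came to 81.4 FPKM in HCEC-1CT. There were 20 members that reached 5 FPKM in at least 2 lines, and 9 of them had a different main transcript between such lines with a share that differed by 30 percentage points or more. The same rule held for 28.4% of all genes and 29.5% of protein-coding genes at that level. Besides SLC3A2, SLC7A8 and SLC38A1 these were SLC6A6, SLC7A6, SLC36A4, SLC38A5, SLC38A9 and SLC43A1. In SLC6A6 the leading transcript in HCT116, ENST00000610642 with 39.1%, is annotated as subject to nonsense-mediated decay, while the coding ENST00000622186 held 10.3% in HCT116, 46.6% in DLD-1, 55.5% in SW620 and 72.6% in HCEC-1CT.

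The remaining SLC6A members carry osmolytes, creatine, glycine and proline. SLC6A6, the taurine carrier, stood at 16.0 FPKM in HCT116, 44.2 in DLD-1, 29.1 in SW620 and 68.7 in HCEC-1CT. It was lowest in HCT116, where the log2 ratio of -2.03 just passed 4-fold. SLC6A8, the creatine carrier, stood at 22.8 FPKM in HCT116, 70.5 in DLD-1, 30.6 in SW620 and 60.9 in HCEC-1CT, with no ratio past 4-fold. CKB, the brain-type creatine kinase that uses its substrate, was higher in all 3 cancer lines, at 148 FPKM in HCT116, 36.3 in DLD-1, 23.9 in SW620 and 1.89 in HCEC-1CT.

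In 3 other SLC6A genes a single cancer line was set apart above the rest. SLC6A12, which encodes the betaine and GABA carrier BGT1, stood at 2.19 FPKM in HCT116, 0.961 in DLD-1, 19.3 in SW620 and 0.0998 in HCEC-1CT. SW620 was set apart above the others, with a log2 ratio of 4.21. SLC6A20, which encodes SIT1, a carrier of proline and other imino acids in gut and kidney, stood at 1.32 FPKM in HCT116, 10.9 in DLD-1, 0.0161 in SW620 and 0.0139 in HCEC-1CT. DLD-1 was set apart by SLC6A20, with a log2 ratio of 3.55, and the HCEC-1CT value stands for about 1 fragment. SLC6A17, a vesicular carrier of neutral amino acids in neurons, was at 4.42 FPKM in HCT116 and 0.00664 in DLD-1 and was listed at 0 in SW620 and HCEC-1CT. SLC6A9, the glycine carrier GlyT1, was at 1.80 FPKM in HCT116, 3.13 in DLD-1, 4.25 in SW620 and 6.33 in HCEC-1CT, with no ratio past 4-fold.

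In all, HCT116 was set apart by 2 members, DLD-1 by 4, SW620 by 4 and HCEC-1CT by 3. Among all genes with at least 1 FPKM in a library the same rule held for 1.36%, 1.96%, 1.9% and 5.68%. Among the protein-coding ones it held for 1.5%, 2.13%, 1.91% and 6.89%. For SW620 the fourth was SLC7A4, a relative of the cationic carriers with no established substrate, at 0.0171 FPKM in HCT116 and 3.69 in SW620 and listed at 0 in DLD-1 and HCEC-1CT. DLD-1 lay apart below the others in SLC38A5 and in SLC43A3. Among protein-coding transcripts alone SLC43A3 no longer met the rule, at 0 FPKM in DLD-1 against 2.38 in HCT116, the next lowest line.

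Of the SLC43A and SLC36A genes, SLC43A1, SLC43A3 and SLC36A4 were highest in HCEC-1CT. SLC43A3 stood at 3.36 FPKM in HCT116, was listed at 0 in DLD-1, and stood at 15.5 in SW620 and 58.8 in HCEC-1CT. Its log2 ratio passed 4-fold in HCT116 at -3.78 and did not in SW620 at -1.86. SLC43A1, which encodes the large neutral carrier LAT3, was at 2.53 FPKM in HCT116, 1.10 in DLD-1, 8.50 in SW620 and 10.6 in HCEC-1CT, and its ratio of -2.47 passed 4-fold in DLD-1. SLC36A4, which encodes PAT4, a carrier of proline and tryptophan, was at 7.96 FPKM in HCT116, 5.56 in DLD-1, 8.57 in SW620 and 32.1 in HCEC-1CT, with log2 ratios of -1.88 for HCT116, -2.33 for DLD-1 and -1.79 for SW620. With median-ratio scaling SLC36A4 and SLC43A3 joined SLC6A15 and SLC7A2 as lower in all 3 cancer lines. For SLC36A4, a short transcript of 888 bases, ENST00000534116, held 3.69% of the FPKM in HCT116, 30.2% in DLD-1, 49.9% in SW620 and 50.3% in HCEC-1CT. The SLC36A4 values stand for about 1020 fragments in HCT116, 416 in DLD-1, 751 in SW620 and 2700 in HCEC-1CT. SLC43A2, which encodes the large neutral carrier LAT4, was highest in HCT116, at 2.23 FPKM in HCT116, 0.896 in DLD-1, 1.68 in SW620 and 1.67 in HCEC-1CT. SLC36A1, which encodes PAT1, was highest in DLD-1, at 6.07 FPKM in HCT116, 7.79 in DLD-1, 4.08 in SW620 and 5.84 in HCEC-1CT.

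No ratio of the lysosomal members or of SLC38A10 passed 4-fold. SLC38A9, the lysosomal arginine sensor of mTORC1, was at 5.36 FPKM in HCT116, 11.7 in DLD-1, 5.80 in SW620 and 8.16 in HCEC-1CT. SLC38A7, which releases glutamine and asparagine from lysosomes, was at 1.79 FPKM in HCT116, 4.65 in DLD-1, 3.88 in SW620 and 6.81 in HCEC-1CT. SLC38A10 was at 28.2 FPKM in HCT116, 37.8 in DLD-1, 20.3 in SW620 and 28.96 in HCEC-1CT. SLC38A6 passed 4-fold in HCT116 alone, with a log2 ratio of -2.02, at 0.885 FPKM in HCT116, 5.05 in DLD-1, 2.56 in SW620 and 6.65 in HCEC-1CT. Among protein-coding transcripts alone SLC38A6 was at 0.202 FPKM in HCT116 and 3.61 in HCEC-1CT, just short of 4-fold on FPKM + 1.

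Genes around the transporters were counted by the same 4-fold rule. Of all genes with at least 1 FPKM in a library, 8.93% to 9.24% were higher and 5.01% to 5.57% lower in a given cancer line. In all 3 cancer lines 2.68% were higher and 2.99% lower. The lists are short, and whether their counts differ from these shares was not tested. Of 28 genes of mTORC1 and its amino acid sensing, 1 was higher for HCT116, 0 for DLD-1 and 2 for SW620, and 0 were lower in any line. They were RRAGD, a Rag GTPase, at 11.6 FPKM in HCT116, 1.38 in DLD-1, 7.85 in SW620 and 0.0589 in HCEC-1CT, and SESN3, a sestrin, which was higher in SW620 at 39.2 FPKM against 1.69 in HCEC-1CT. Of 14 genes of glutathione and cysteine turnover, 1 was higher in all 3 cancer lines, GGCT, an enzyme of glutathione breakdown, at 11.7 FPKM in HCT116, 13.5 in DLD-1, 13.8 in SW620 and 1.94 in HCEC-1CT. GCLC, which makes the rate-limiting step of glutathione synthesis, was at 32.3 FPKM in HCT116, 22.0 in DLD-1, 30.7 in SW620 and 9.31 in HCEC-1CT, above HCEC-1CT in each cancer line by less than 4-fold. In that list GGT5 was lower in all 3. The list medians were 0.85 for HCT116, 1.255 for DLD-1 and 0.92 for SW620, beside the all-gene medians given above.

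Of 31 enzymes of amino acid metabolism, 26 reached 1 FPKM in a line. Among these, 6 were higher for HCT116, 3 for DLD-1 and 6 for SW620, and 1 was lower in each. The 1 lower in every cancer line was BCAT1, the cytosolic aminotransferase of branched-chain amino acids, at 0.0569 FPKM in HCT116, 0.0505 in DLD-1, 0.138 in SW620 and 23.9 in HCEC-1CT, the same direction as the branched-chain carrier gene SLC6A15. BCAT2, its mitochondrial counterpart, stood the other way, at 12.1 FPKM in HCT116, 30.2 in DLD-1, 15.4 in SW620 and 2.71 in HCEC-1CT. Of 15 genes of the ATF4 response, which induces several transporters when amino acids are short, 0 were higher and 1 lower in all 3 lines. That was CEBPB, at 55.7 FPKM in HCT116, 39.5 in DLD-1, 50.2 in SW620 and 291 in HCEC-1CT, while ATF4 itself was at 157 FPKM in HCT116, 145 in DLD-1, 157 in SW620 and 212 in HCEC-1CT. ASNS, asparagine synthetase, was higher in HCT116, at 55.5 FPKM, against 26.4 in DLD-1, 9.40 in SW620 and 6.99 in HCEC-1CT. HCT116 was the line in which SLC7A5 was highest and SLC7A11 lowest. Of the 15 genes, 1 was higher and 2 lower in HCT116, 0 and 2 in DLD-1, and 1 and 3 in SW620. Their median log2 ratios were -0.41 for HCT116, -0.96 for DLD-1 and -0.43 for SW620. Of 22 other carriers of amino acids and peptides, 16 reached 1 FPKM in a line. Among these, 0 were higher and 1, the peptide carrier SLC15A3, was lower in each cancer line. Of 6 partner and scaffold genes matched, 5 reached 1 FPKM in a line. SLC9A3R1, a scaffold of the brush border, was higher in all 3, at 32.7 FPKM in HCT116, 35.7 in DLD-1, 24.1 in SW620 and 2.57 in HCEC-1CT.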

How the data were processed

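The values used are FPKM as deposited by the authors, for 58740 genes and for 207345 transcripts of 4 lines with 1 library each. FastQC, HISAT2 and build hg38 are named per the submitters' processing notes. What computed FPKM, with which annotation and filters, and whether strand was kept, is not given in the sources. The gene and transcript tables each hold 1 further column with no matching sample, left unused. Member values and summed transcripts differed by at most 8.7e-05 FPKM. Gene types, transcript types and lengths came from GENCODE 29; of 599 member transcripts 7 had no match. Depth was estimated from genes with 1 transcript: the most frequent low value of FPKM times length was taken as 1 fragment. At 2 steps 36 to 86 values per library lay within a tolerance of 0.01, against 9 to 23 at 2.25 steps.

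With 1 library per line, differences were described and not tested. Set apart means at least 4-fold higher than every other line, or lower than every other line by as much. A gene that met this for 2 lines was counted for the later one only, in the order HCT116, DLD-1, SW620 and HCEC-1CT. Members with at least 10 FPKM in a line or past 4-fold in a comparison were named, with others chosen after their values were seen (SLC1A7, SLC6A9, SLC7A7, SLC7A10, SLC36A1, SLC38A7, SLC43A2 and members under 1 FPKM); of each other list, at most 4 genes were named, from those at 10 FPKM or more with the largest median ratio in either direction; ATF4, BCAT2, GGT5, SLC15A3, the near copies and the marker names were added after their values were seen. Members and lists were chosen with earlier results of these data known. Python 3.11.15 and pandas 2.3.3 were used.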

Additional observations from a re-analysis of the deposited data

Results flagged for a closer look

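Members at 10 FPKM or more in a line were looked at again when they lay at least 2-fold above HCEC-1CT in 1 cancer line and at least 2-fold below it in another; the difference between the lines was not tested, as each has 1 library. SLC1A3 had a log2 ratio of FPKM + 1 of 2.86 in HCT116 and -1.26 in SW620, where it is listed at 0 and the value rests on the pseudocount. SLC1A1 had 1.48 in DLD-1 and -2.22 in SW620. SLC38A5 had 2.00 in SW620 and -4.74 in DLD-1, where it is likewise listed at 0 and the value rests on the pseudocount.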

How the results depend on the processing

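Counts of members past 4-fold are small, so single genes near the limit move them. With a pseudocount of 0.1, 7 members were higher in HCT116 in place of 4. With a pseudocount of 5, 1 was higher and 3 lower in HCT116, 1 higher in DLD-1, 3 higher in SW620 and 0 higher in all 3 lines, and HCT116, DLD-1 and SW620 were set apart by 0, 0 and 1. When the higher value had to reach 10 FPKM, 2 were higher in HCT116, 3 in SW620 and 0 in all 3, and HCT116, DLD-1 and SW620 were set apart by 1, 2 and 2. With median-ratio scaling, 6 were lower in SW620 and 4 in all 3, and DLD-1 and HCEC-1CT were set apart by 2 and 5. SLC43A3, listed at 0 in DLD-1, still met the rule for DLD-1 under that scaling but was counted for HCEC-1CT. At 2-fold, 8 were higher and 12 lower in HCT116, 5 higher in DLD-1, 9 higher and 9 lower in SW620 and 5 lower in all 3, and SW620 and HCEC-1CT were set apart by 7 and 6. With protein-coding transcripts only, an alternative chosen after seeing the data, 0 were higher in all 3 and DLD-1 was set apart by 2. SLC38A5 also met the rule for DLD-1 there, at 0 FPKM against 4.18 in HCT116, the next lowest line, but was counted for SW620. A share difference of 50 percentage points left 3 members with another main transcript. No count moved by more than 1.5 times with no filter or with scaling to the protein-coding FPKM, and no ratio past 4-fold changed sign under any of these alternatives. Under a pseudocount of 5, 14 ratios of named members fell below 4-fold; the cause was not tested beyond the construction of the scale. No paired analysis was possible because each line has 1 library, and no library could be left out for the same reason. Intervals are not given, since depth is an estimate.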

Other observations

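Several members lie next to each other in hg38, and neighbours did not share their levels throughout. SLC6A12 and SLC6A13 on chromosome 12 are 6050 bases apart, and SLC6A12 stood at 19.3 FPKM in SW620 while SLC6A13 stood at 0.0138. SLC43A3 and SLC43A1 on chromosome 11 are 56953 bases apart, and both were lowest in DLD-1, with SLC43A3 listed at 0 and SLC43A1 at 1.10 FPKM. SLC38A1 and SLC38A2 on chromosome 12 are 88171 bases apart, and in DLD-1 SLC38A1 was above its HCEC-1CT level while SLC38A2 was below, at 40.8 and 111 FPKM against 18.2 and 287. Among protein-coding transcripts SLC38A1 was nearly level, at 19.6 FPKM in DLD-1 and 16.7 in HCEC-1CT, and SLC38A2 was at 65.2 and 187.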
